A study of Homo sapiens with 15 samples.

Results

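The 77 genes described here encode the proteins of the cytosolic ribosome. They were taken from the gene count table by symbol, as RPL or RPS followed by a number and, where present, the letter A or X, together with RPSA, RPLP0, RPLP1 and RPLP2. They are 77 of the 37787 genes in the table, 31 of the small 40S subunit and 46 of the large 60S subunit. Membership rested on the symbol alone, but the family was chosen with earlier results of these data known. All 77 passed the filter on low counts that left 13868 genes for testing. FAU, which encodes a ribosomal protein fused to a ubiquitin-like sequence, carries another kind of symbol and is given separately.

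Gene expression was measured by RNA sequencing in HGrC1 cells at passage 14. HGrC1 is a line of immortalised granulosa cells of human origin, the hormone-producing cells around the oocyte, and it carries both FOXL2 alleles in their normal form. Cells were transfected with plasmids for 4 h and kept for 24 h without serum, with 3 libraries for each of 5 conditions. In the condition named Vectors the plasmids carried no insert. The other 4 conditions all received SMAD3, together with wild-type FOXL2 (FOXL2WT), with the C134W mutant found in adult-type granulosa cell tumours (FOXL2C134W), or with either of these and the constitutively active FOXO1-3A (FOXL2WT + FOXO1 and FOXL2C134W + FOXO1). No condition held FOXL2 or FOXO1 without SMAD3, so the effect of SMAD3 cannot be told apart from that of FOXL2 in comparisons with Vectors. All libraries come from 1 cell line after transient transfection, and the labels do not say whether replicates A, B and C were separate cultures, so the p-values measure the spread between these libraries, which may be technical.

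Cytosolic ribosomal proteins assemble with ribosomal RNA in the nucleolus and are needed in matching amounts, so their mRNAs are among the most abundant of a growing cell. Most of these mRNAs start with a C followed by a run of pyrimidines, the 5′ terminal oligopyrimidine (TOP) tract, through which the mTOR pathway and LARP1 set how strongly they are translated and how stable they are. Transcription of ribosomal RNA and of ribosome assembly factors is known to respond to MYC, and FOXO proteins are known for restraining growth when insulin signalling is low.

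The start sites of 14 members are shown because the TOP tract is the sequence feature that defines how this family is regulated. Each line gives 30 bases from RefSeq (GRCh38.p14), of which 15 lie before the listed transcription start and 15 from it on. Capitals mark the tract nearest the start, defined as a C followed by at least 4 bases that are each C or T.
RPSA, chr3:39406705-39406734, plus strand: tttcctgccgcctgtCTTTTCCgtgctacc
RPLP0, chr12:120201097-120201126, minus strand: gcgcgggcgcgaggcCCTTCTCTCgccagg
RPLP1, chr15:69452803-69452832, plus strand: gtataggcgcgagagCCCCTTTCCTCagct
RPLP2, chr11:809952-809981, plus strand: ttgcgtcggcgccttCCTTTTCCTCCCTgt
RPS6, chr9:19380222-19380251, minus strand: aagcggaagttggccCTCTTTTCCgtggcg
RPS14, chr5:150449725-150449754, minus strand: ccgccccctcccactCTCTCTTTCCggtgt
RPS19, chr19:41860240-41860269, plus strand: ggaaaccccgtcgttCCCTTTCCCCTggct
RPS27, chr1:153990747-153990776, plus strand: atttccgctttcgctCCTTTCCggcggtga
RPS28, chr19:8321481-8321510, plus strand: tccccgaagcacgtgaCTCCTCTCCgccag
RPS29, chr14:49598696-49598725, minus strand: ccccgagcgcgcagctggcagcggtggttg
RPL13A, chr19:49487593-49487622, plus strand: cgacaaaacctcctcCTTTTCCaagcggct
RPL22, chr1:6199581-6199610, minus strand: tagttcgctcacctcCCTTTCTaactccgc
RPL28, chr19:55385917-55385946, plus strand: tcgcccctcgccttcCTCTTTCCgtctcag
RPL39, chrX:119791616-119791645, minus strand: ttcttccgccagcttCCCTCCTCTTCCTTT

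RefSeq promoter sequences were matched for 62 of the 77 members, with 77 windows because 10 members have more than 1 listed start. The C with its pyrimidine run stood exactly at the listed start in 46 of the 77 member windows, or 59.7%, against 4.07% of all 35116 promoter windows. Within 10 bases of the start it was found in 64 member windows, or 83.1%, against 33.5% of all windows. RPL17, RPL27, RPL6, RPS29 and RPS4X had no such tract near any listed start. The letters CCGGAAG, searched on both strands over the 300 bases of each window, were present in 33.8% of member windows and 10.3% of all windows, while TATAAA was present in 6.49% and 11.5%. These are matches of letters and describe the windows listed, not the start sites used in these cells.

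The 15 libraries held between 14962245 and 25339094 gene counts, and every member had at least 1330 counts in every library. Levels are given as CPM, the counts of a gene per 1e+06 counts after TMM scaling, when a gene is compared between libraries, and as TPM, which are scaled to the same total in every library and allow for transcript length, when genes are compared with each other. With Vectors, SMAD3 stood at 240 to 263 CPM and FOXO1 at 12.2 to 13.8 CPM. FOXL2 stood at 8.28 to 9.54 CPM with Vectors, at 554 to 566 CPM with FOXL2WT and at 121 to 175 CPM with FOXL2C134W. SMAD3 was also lower with FOXL2C134W (812 to 885 CPM) than with FOXL2WT (2595 to 2889 CPM), and FOXO1 was at 104 to 133 CPM in FOXL2WT + FOXO1 and 39.1 to 47.2 CPM in FOXL2C134W + FOXO1. SMAD3 was lower with FOXO1 added, at 957 to 976 CPM in FOXL2WT + FOXO1 and 379 to 411 CPM in FOXL2C134W + FOXO1. FOXL2 was at 374 to 401 CPM and at 139.2 to 175.5 CPM in these conditions. The mRNAs of the plasmid-borne genes therefore differed in level between the wild-type and mutant conditions, and FOXL2 differed in sequence too. SMAD3 mRNA also differed in level between conditions with and without FOXO1. By immunoblot the paper reports balanced protein of both FOXL2 forms and of FOXO1. The part of these mRNA levels in the member results was not tested. Of 18 granulosa markers 10 were above 1 CPM in every library, among them plasmid-borne FOXL2, CDH2, GATA4 and the keratin genes KRT8 and KRT18, which other epithelial cells express too. FSHR had 0 counts in all libraries, and CYP19A1 and INHA had at most 4 counts and AMHR2 at most 7. Of 9 markers of other cell types 1, EPCAM, was above 1 CPM in every library.

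Member mRNAs were abundant and differed widely among themselves. Mean TPM over the 15 libraries ran from 528 for RPS26 to 5074 for RPL41, with a median of 1472, against a median of 14.8 over all genes tested. Within a library the highest member was 8.12 to 11.1 times the lowest. The 40S members had a median of 1400 TPM and the 60S members one of 1488 TPM. RPL41, which encodes the shortest ribosomal protein, was highest (4302 to 6530 TPM), followed by RPS2 of the mRNA entry channel (3058 to 4047 TPM), RPL37A (2964 to 3751 TPM), the stalk protein gene RPLP1 (2664 to 2995 TPM) and RPL26 (2471 to 2944 TPM). The range of RPL41 lay above that of RPS2, while each of the other 4 overlapped the next in this order. At the other end stood RPS26 of the mRNA exit channel (476 to 589 TPM). Low levels were also found for RPL22 (594 to 831 TPM), RPL34 (729 to 865 TPM) and RPL28 (664 to 982 TPM), whose ranges overlapped each other and lay above that of RPS26. The order in TPM depends on the estimated effective length, which was 179.5 bases for RPL41. Only 13.8% of the TPM of RPL41 lay on coding transcripts. In mean CPM RPL41 stood at 783, below RPS2 at 1549. The order of the members was kept from library to library, with Spearman correlations across the 77 genes of 0.977 to 0.994 between each library and the mean of the others.

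**Figure D1:**
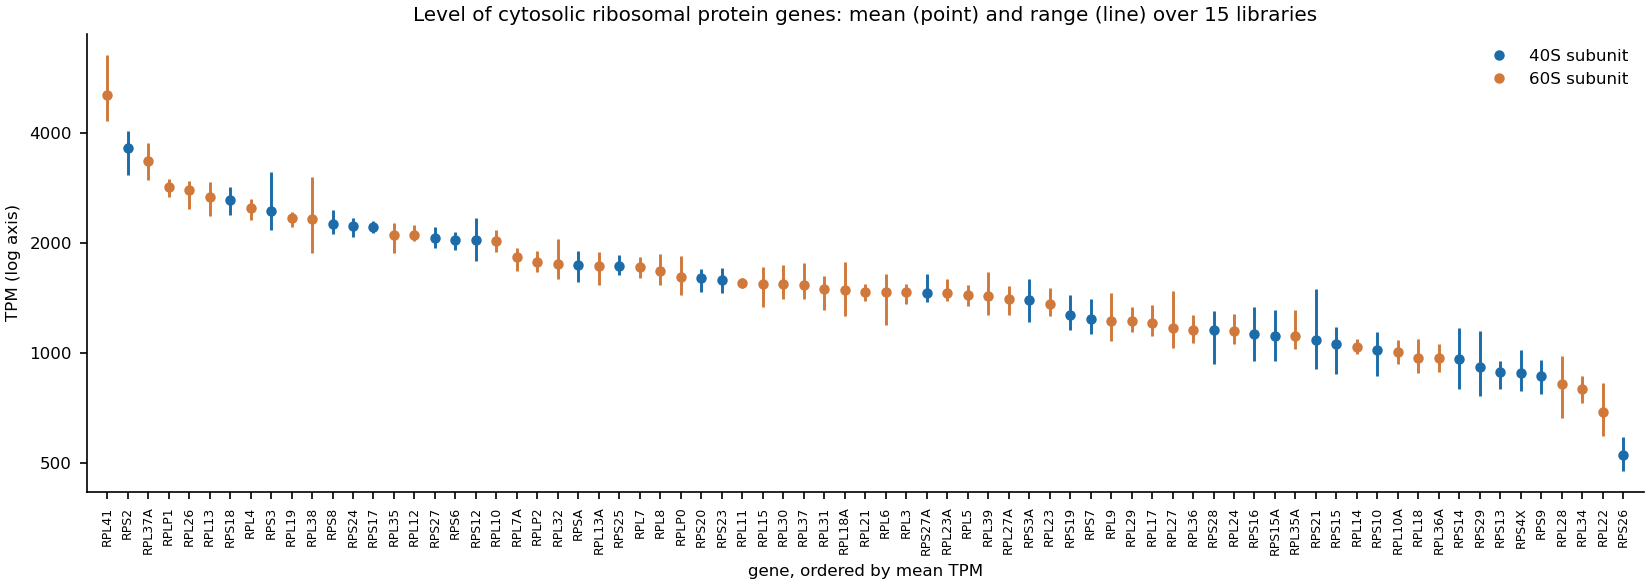
The level of 75 of the 77 members in TPM on a log axis, with the mean as a point and the lowest to highest of 15 libraries as a line. RPL41 stands apart at the top with a mean of 5074 TPM, and RPS26 is lowest with 528 TPM.

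Members with a known role beyond the ribosome's core were spread around the family median. RPSA, which also encodes the laminin receptor precursor, had a mean of 1743 TPM. The stalk genes RPLP0 and RPLP2, which with RPLP1 recruit elongation factors, had means of 1615 and 1777 TPM, and so stood below RPLP1 at 2839 TPM. RPS6, whose protein is the classical target of S6 kinase, had a mean of 2033 TPM. RPL5 and RPL11, which with 5S ribosomal RNA bind MDM2 when ribosome assembly fails, had means of 1438 and 1555 TPM. RPS19, the gene most often mutated in Diamond-Blackfan anaemia, had a mean of 1268 TPM and RPS14, which lies in the region deleted in the 5q- syndrome, one of 964 TPM. RPS4X, on the X chromosome, had a mean of 882 TPM.

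The members together took about 4% of a library's counts in every condition. With Vectors the shares were 3.85%, 4.22% and 4.11% in replicates A, B and C, with a mean of 4.06% ± 0.187 (SD, n = 3). With FOXL2WT they were 4.31%, 4.24% and 4.23%, a mean of 4.26% ± 0.0394 (SD, n = 3), and with FOXL2C134W 4.15%, 3.91% and 3.89%, a mean of 3.98% ± 0.14 (SD, n = 3). With FOXL2WT + FOXO1 they were 4.86%, 4.24% and 4.19%, a mean of 4.43% ± 0.375 (SD, n = 3), and with FOXL2C134W + FOXO1 4.20%, 4.18% and 3.80%, a mean of 4.06% ± 0.226 (SD, n = 3). The 3 FOXL2WT libraries lay above the 3 FOXL2C134W and the 3 Vectors libraries, while the 2 conditions with FOXO1 overlapped. The 95% Wilson interval of each share reached at most 0.011 percentage points to either side, which covers counting error only, so the spread between replicates was far wider than the counting error. A share of counts or CPM is a relative measure, and bulk libraries cannot tell fewer cells of a kind from less of an mRNA per cell.

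**Figure D2:**
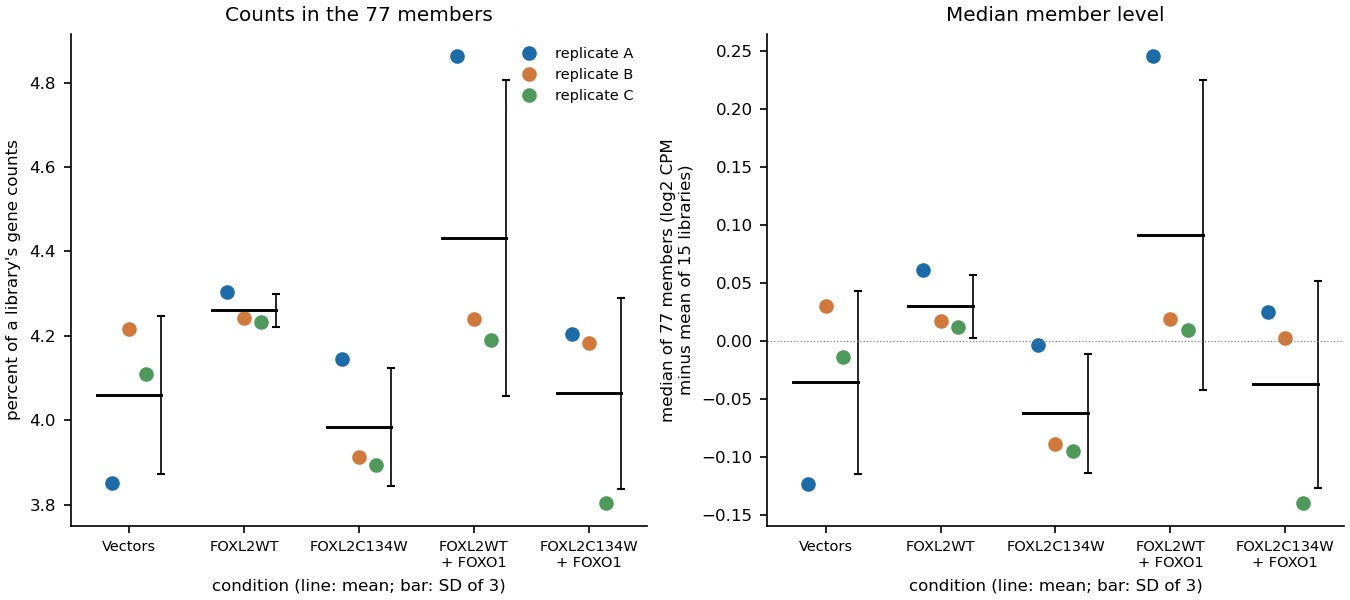
Left, percent of each library's gene counts that fell in the 77 members. Right, median over the 77 members of log2 CPM minus each gene's mean over 15 libraries. Points are libraries, lines are means and bars are the SD of 3. Replicate A of FOXL2WT + FOXO1 lies highest in both panels, at 4.86% and 0.25.

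Members rose and fell together from library to library. Over the 2926 pairs of members the median Pearson correlation of log2 CPM across the 15 libraries was 0.78, and it was 0.79 for the deviations from each condition's mean. For the 78 mitochondrial ribosomal protein genes the median was 0.37, for 42 ribosome assembly genes 0.48, and for 2504 other genes with a mean CPM at least as high as the lowest member 0.03. These pairs share the same libraries, depth and scaling, so the correlations are a description. The SD of log2 CPM over the 15 libraries had a median of 0.11 for the members and of 0.08 for the 2581 genes tested with a mean CPM at least that of the lowest member.

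A single library stood furthest from the others. Replicate A of FOXL2WT + FOXO1, the library with the fewest counts (14962245), held the highest CPM of 73 of the 77 members. The median member there stood 0.25 above its mean on the log2 scale, with all 77 above their own mean. Replicate B of FOXL2WT had nearly as few counts (14992137) and a median of 0.02. Replicate C of FOXL2C134W + FOXO1 held the lowest value of 36 members (median -0.14) and replicate A of Vectors that of 24 members (median -0.12). Replicates B and C of FOXL2C134W had medians of -0.089 and -0.095, with 0 and 5 of the 77 members above their own mean. In the same library with the highest members, short genes outside the family were also high. The 669 other genes with an effective length under 500 bases had a median of 0.19 there, the 1990 genes of 500 to 1000 bases 0.12, and the 6546 genes of 2000 bases or more -0.06. In replicate C of FOXL2C134W + FOXO1 those medians were -0.11, -0.08 and 0.04. They were -0.09, -0.07 and 0.05 in replicate B of FOXL2C134W and -0.09, -0.08 and 0.05 in its replicate C. In replicate A of Vectors they were -0.05, -0.04 and 0.02. The members are short genes, 60 of the 77 having an effective length under 500 bases, with a median of 374 against 1893 over all genes tested. A length offset, which removes the trend of log2 CPM with transcript length in each library, was run as an alternative, and its values stand beside the comparisons.

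**Figure D3:**
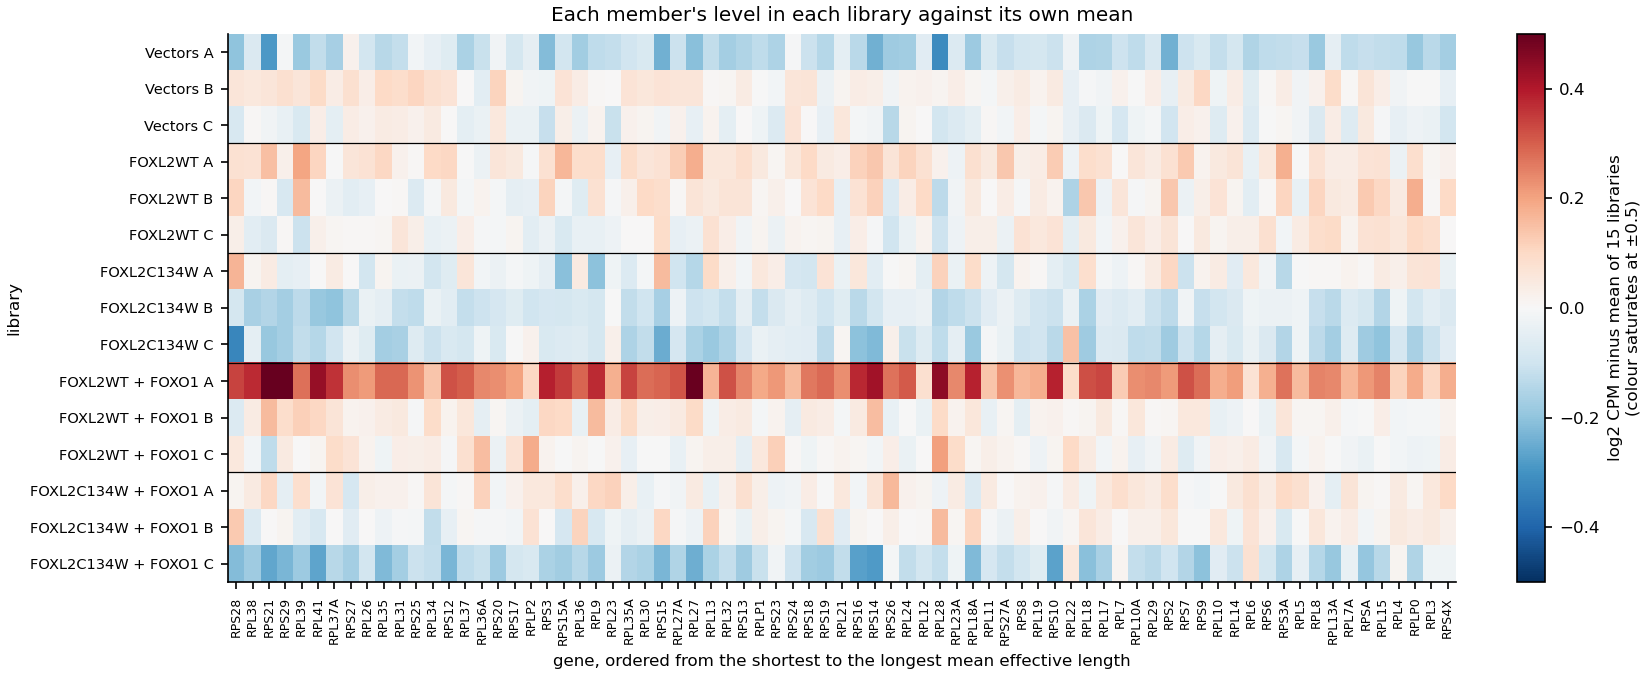
Log2 CPM of 75 of the 77 members in each of the 15 libraries minus the member's mean, members ordered from the shortest (left) to the longest (right) effective length. The row of FOXL2WT + FOXO1 replicate A is red for all 75 members shown. Mostly blue are the rows of Vectors replicate A, FOXL2C134W replicates B and C, and FOXL2C134W + FOXO1 replicate C.

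The members that varied most were RPS21 (SD of log2 CPM over 15 libraries 0.21), RPL28 (0.18) and RPL27 (0.18), and those that varied least were RPL12 (0.06), RPL11 (0.06) and RPL4 (0.06). RPL22, which binds small viral and cellular RNAs and has a paralog that can replace it, followed the family least. Its correlation with the mean of the other 76 members across the 15 libraries was 0.04, against 0.34 for RPL6, 0.50 for RPLP2 and 0.66 for RPL23, the next in order. The RPL22 gene lies at chr1:6185020-6209389 on the minus strand (GENCODE 44).

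The comparison of FOXL2WT with Vectors addresses what SMAD3 and wild-type FOXL2 do together. No member was called by edgeR's quasi-likelihood test at an adjusted p under 0.05, where 842 of 13868 genes, or 6.07%, were. At an unadjusted p under 0.05 there were 6 members, RPS2, RPS4X, RPLP0, RPL8, RPS3 and RPL10, all higher with FOXL2WT, and 2878 genes in all. The median log2 fold change of the members was 0.07 with 68 of 77 above 0, against a median of 0.00 and 50.9% above 0 over all genes tested. In 20 of the 77 members, or 26.0%, the replicates of the 2 conditions did not overlap, all 20 higher with FOXL2WT, where 31.1% of all genes did not overlap.

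RPS2 showed the largest difference in this comparison. It stood at 1306, 1500 and 1446 CPM with Vectors and at 1629, 1693 and 1614 CPM with FOXL2WT. The 2 conditions did not overlap, and the log2 fold change was 0.21 ± 0.07 (SE), with a 95% interval from 0.07 to 0.36 and an adjusted p of 0.08 by edgeR. RPLP0 was at 1037, 1180 and 1161 CPM with Vectors and at 1251, 1339 and 1266 CPM with FOXL2WT, again without overlap, a log2 fold change of 0.19 ± 0.07 (SE) with an adjusted p of 0.10 by edgeR. RPS25, at 363 to 395 CPM with Vectors and 349 to 374 CPM with FOXL2WT, had the lowest log2 fold change, -0.05, and the conditions overlapped. The 95% intervals of all 77 members lay within 1.5-fold in either direction, and those of 61 within 1.2-fold. The count of 0 depended on the method. DESeq2 called 2 members (RPS2 and RPS4X), a length offset 4 (RPL8, RPLP0, RPS2 and RPS3), a fit of these 2 conditions alone 10, and a looser filter that kept genes with 1 count in any library 10, in each case higher with FOXL2WT. Over all genes these settings called 1006, 1148, 1690 and 1345 in the same order, the last being 5.91%. The median was 0.03 without replicate A of Vectors and 0.05 with the length offset.

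In FOXL2C134W against Vectors neither edgeR nor DESeq2 called a member, where edgeR called 2041 genes, or 14.7%. At an unadjusted p under 0.05 there were 2 members, RPL6 (higher) and RPS24 (lower), and 3830 genes in all. The median log2 fold change was -0.02, with 26 of 77 members above 0, against 0.00 and 51.1% over all genes. It was 0.01 without replicate B of Vectors, -0.06 without replicate A of Vectors and 0.05 with the length offset, so its direction was not settled. The replicates did not overlap in 6 members, 1 higher and 5 lower, where 31.8% of all genes did not overlap. RPL6 was at 660, 703 and 700 CPM with Vectors and at 761, 722 and 717 CPM with FOXL2C134W, without overlap, for a log2 fold change of 0.09 ± 0.04 (SE) and an adjusted p of 0.10 by edgeR. The highest log2 fold change was that of RPS26, at 154, 172 and 158 CPM with Vectors and 173, 169 and 177 CPM with FOXL2C134W, a difference of 0.10 whose 95% interval ran from -0.04 to 0.25. A length offset called 8 members, all higher (RPL10, RPL23, RPL37, RPL4, RPL6, RPS23, RPS26 and RPS3). The looser filter called 2, both lower, so the direction of the calls differed between these settings. Over all genes the length offset called 2243 and the looser filter 2320, or 10.2%.

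FOXL2C134W against FOXL2WT addresses the effect of the mutation, in conditions whose FOXL2 and SMAD3 mRNA also differed in level. Most members stood slightly lower with FOXL2C134W, but edgeR and DESeq2 called 0 of the 77, where edgeR called 1560 of all genes, or 11.2%. At an unadjusted p under 0.05 there were 15 members and 3535 genes. The median log2 fold change was -0.10 and 71 of 77 members were below 0, against a median of -0.01 over all genes tested, of which 47.2% were above 0. The replicates did not overlap in 30 members, or 39.0%, all lower with FOXL2C134W, where 30.4% of all genes did not overlap.

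RPL12, part of the stalk base, had the smallest adjusted p. It was at 743.0, 754.6 and 712.8 CPM with FOXL2WT and at 680.5, 690.5 and 674.2 CPM with FOXL2C134W. The conditions did not overlap, and the log2 fold change was -0.11 ± 0.04 (SE) with an adjusted p of 0.077 by edgeR. RPL27 had the lowest log2 fold change, -0.21 ± 0.10 (SE), with 375, 346 and 324 CPM against 300, 308 and 297 CPM, also without overlap. RPLP0 was at 1236, 1110 and 1056 CPM with FOXL2C134W, so it was lower there by -0.18 ± 0.07 (SE) on the log2 scale with an adjusted p of 0.092 by edgeR. RPL22 went the other way, at 262, 240 and 258 CPM with FOXL2WT and 253, 260 and 295 CPM with FOXL2C134W, a log2 fold change of 0.09 with a 95% interval from -0.02 to 0.20 and overlapping conditions. It was 0.02 without replicate C of FOXL2C134W and 0.14 without replicate A of FOXL2C134W.

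The intervals of all 77 members lay within 1.5-fold, and those of 47 within 1.2-fold. Leaving out replicate A of FOXL2C134W, whose median member stood at 0.00 where replicates B and C stood at -0.09 and -0.10, gave 8 called members, all lower, among them RPL15, RPLP0, RPS2 and RPSA. The looser filter gave 21 and a fit of these 2 conditions alone 11, again all lower. Over all genes these fits called 1954, or 8.59%, and 1478. With the length offset no member was called and the median moved from -0.10 to -0.01, and with the length offset and a replicate block 2 members were called, both higher (RPL22 and RPL6).

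With FOXO1 present in both conditions, most members again stood lower with the mutant. None was called by edgeR in FOXL2C134W + FOXO1 against FOXL2WT + FOXO1, where 20 of all genes, or 0.144%, were, and DESeq2 called 1, RPS27. An unadjusted p under 0.05 was found for 37 of 77 members and 1878 genes in all. The median log2 fold change was -0.13, with 74 of 77 members below 0, against a median of 0.00 over all genes. The replicates did not overlap in 12 members, or 15.6%, all lower with FOXL2C134W + FOXO1, where 15.2% of all genes did not overlap.

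RPS27, whose paralog RPS27L is a p53 target, was at 430, 371 and 384 CPM in FOXL2WT + FOXO1 and at 345, 352 and 325 CPM in FOXL2C134W + FOXO1. The conditions did not overlap, and the log2 fold change was -0.21 ± 0.05 (SE) with an adjusted p of 0.12 by edgeR and 0.019 by DESeq2. RPS29 had the lowest log2 fold change, -0.31 ± 0.09 (SE), with 136, 100 and 97.2 CPM against 91.5, 95.2 and 80.5 CPM. The value of replicate A of FOXL2WT + FOXO1 was the highest, and the conditions did not overlap. Without that library the log2 fold change was -0.15. RPL41 was at 1052, 836 and 786 CPM and at 770, 735 and 649 CPM, a log2 fold change of -0.31 ± 0.09 (SE). RPL6 was nearly level, at 772, 736 and 754 CPM and 776, 770 and 774 CPM, a log2 fold change of 0.04.

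The libraries that stood apart carried much of this difference. Without replicate A of FOXL2WT + FOXO1 the median was -0.05 and 5 members had an unadjusted p under 0.05, and without replicate C of FOXL2C134W + FOXO1 the number was 6. The looser filter called 31 members, all lower, with all libraries kept, where 1.96% of all genes were called. With the length offset none was called, 13 had an unadjusted p under 0.05 and the median was -0.01.

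Adding FOXO1 to FOXL2WT raised no member past the threshold of either edgeR or DESeq2, where edgeR called 7 genes, or 0.0505%. SMAD3 mRNA was also lower with FOXO1 added. The unadjusted p was under 0.05 for 9 members and for 1266 genes in all. The median log2 fold change was 0.07 with 69 of 77 members above 0, against 0.00 over all genes, and it was -0.02 without replicate A of FOXL2WT + FOXO1, so its direction rested on that library. It was 0.11 without replicate C of FOXL2WT + FOXO1, and with the length offset it was 0.02 and no member was called. The replicates did not overlap in 7 members, all higher with FOXO1, where 14.5% of all genes did not overlap. RPL28 had the highest log2 fold change, 0.33 ± 0.09 (SE), with 280, 252 and 257 CPM in FOXL2WT and 377, 295 and 318 CPM in FOXL2WT + FOXO1. These did not overlap, and the adjusted p was 0.29 by edgeR. RPLP0 had the lowest, -0.07, with 1345, 1174 and 1162 CPM with FOXO1, which overlapped the 1251 to 1339 CPM without it. The looser filter called 4 members, all higher (RPL28, RPL37A, RPS21 and RPS29), where 1.14% of all genes were called.

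Adding FOXO1 to FOXL2C134W left the calls at 0 members by edgeR and by DESeq2, where edgeR called 99 genes, or 0.714%. Here too SMAD3 mRNA was lower with FOXO1 added. Only RPL7 had an unadjusted p under 0.05, against 1557 genes in all. It was at 679.7, 658.5 and 656.5 CPM in FOXL2C134W and at 733.3, 692.5 and 697.2 CPM in FOXL2C134W + FOXO1, without overlap, and its log2 fold change of 0.09 was the highest of the members. RPS27 had the lowest, -0.05. The median was 0.03 with 67 of 77 above 0, against 0.00 and 51.5% over all genes. Leaving out 1 library moved it between 0.00 (without replicate B of FOXL2C134W + FOXO1) and 0.08 (without replicate C of FOXL2C134W + FOXO1), and with the length offset it was 0.01 and no member was called. The replicates did not overlap in 4 members, all higher, where 14% of all genes did not overlap. The intervals of all 77 members lay within 1.5-fold and those of 74 within 1.2-fold.

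The interaction asks whether FOXO1 acted differently with the mutant than with wild-type FOXL2, in conditions whose SMAD3 mRNA also differed in level. No member was called by edgeR or DESeq2, where edgeR called 192 genes, or 1.38%. At an unadjusted p under 0.05 there were 0 members by edgeR and 1 by DESeq2, against 1736 of all genes by edgeR. The median difference of the 2 log2 fold changes was -0.04 over the members and 0.01 over all genes, and for the members it was 0.04 without replicate A of FOXL2WT + FOXO1 and -0.08 without replicate C of FOXL2WT + FOXO1. With the length offset it was -0.01 and no member was called. The lowest was that of RPL28, -0.27 with a 95% interval from -0.55 to 0.01, and the highest that of RPLP0, 0.09 with an interval from -0.10 to 0.29. All 77 intervals lay within 1.5-fold. The 7 comparisons share conditions with each other, so they are not independent of one another.

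**Figure D4:**
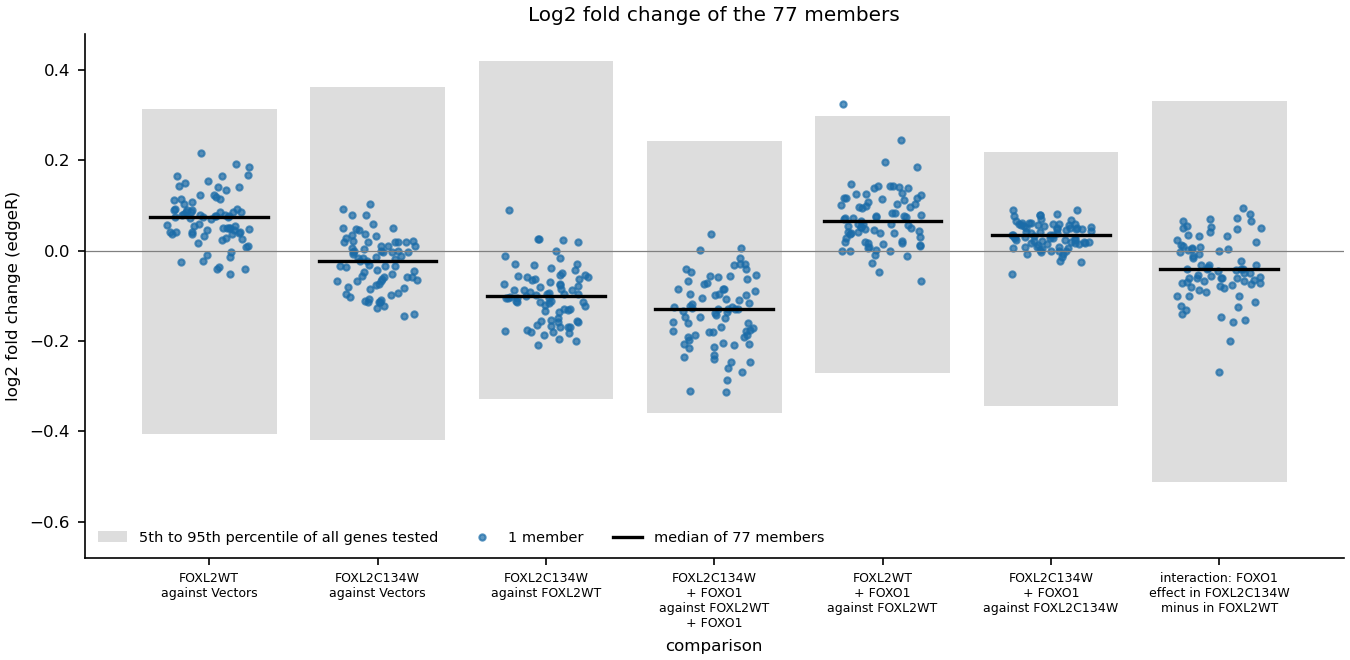
Log2 fold change of each of the 77 members (points) in the 7 comparisons, with the members' median as a line and the 5th to 95th percentile of the 13868 genes tested as a grey band. The member medians lie between -0.13 and 0.07, and RPL28 in FOXL2WT + FOXO1 against FOXL2WT is the point above the band, at 0.33.

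The subunits had similar medians. In FOXL2C134W against FOXL2WT the 31 genes of the 40S subunit had a median log2 fold change of -0.11 and the 46 genes of the 60S subunit one of -0.09. With FOXO1 present the medians were -0.14 and -0.12. The 18 members mutated in Diamond-Blackfan anaemia, among them RPS19, RPL5, RPL11 and RPS26, had none called in any of the 7 comparisons by edgeR. At an unadjusted p under 0.05 there were 0, 1, 3, 10, 1, 0 and 0 of the 18 in the order of the comparisons above, and DESeq2 called RPS27 in the fourth. The shares of all genes at that unadjusted p by edgeR were 20.75%, 27.62%, 25.49%, 13.54%, 9.13%, 11.23% and 12.52%. FAU was not called by edgeR or DESeq2 in any of the 7 comparisons, with log2 fold changes between -0.15 and 0.09.

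Translation factors and related genes, many of them with TOP mRNAs, were read from a list of 20. RACK1, which encodes a scaffold on the 40S subunit, was the 1 gene called in FOXL2WT against Vectors, 0.17 ± 0.05 (SE) higher with an adjusted p of 0.048 by edgeR, where 2.46% of all genes were called higher. It was at 822 to 920 CPM with Vectors and 977 to 1021 CPM with FOXL2WT, and 8 of 16 alternatives kept the call. In FOXL2C134W against Vectors 3 of the 20 were higher, PABPC1, EIF4B and EEF2, where 7.48% of all genes were called higher, and TPT1, encoding the translationally controlled tumour protein, was lower. TPT1 stood at 1374 to 1441 CPM with Vectors, 1363 to 1427 CPM with FOXL2WT and 1139 to 1233 CPM with FOXL2C134W. Its log2 fold change was -0.24 ± 0.04 (SE) against Vectors and -0.22 ± 0.04 (SE) against FOXL2WT, with adjusted p of 0.0012 and 0.0034 by edgeR. In FOXL2C134W against FOXL2WT 7.13% of all genes were called higher, and 2 of the 20 factors were higher (PABPC1 and EIF4B) and 2 lower (TPT1 and EEF1A1). EEF1A1, the elongation factor that brings aminoacyl-tRNA, fell from 8831 to 9285 CPM to 7912 to 8372 CPM, a log2 fold change of -0.14 ± 0.04 (SE) with an adjusted p of 0.025 by edgeR, a call kept in 10 of 16 alternatives. Of 12 noncoding host genes with TOP transcripts, such as GAS5 and SNHG1, none was called in these 3 comparisons by edgeR. At an unadjusted p under 0.05 there were 5, 1 and 4 of the 12, where 20.75%, 27.62% and 25.49% of all genes were. DESeq2 called 4 of these host genes higher in FOXL2WT against Vectors (GAS5, SNHG1, SNHG29 and SNHG32) and none in the next 2 comparisons.

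Ribosome assembly genes make the factors that process ribosomal RNA and join proteins to it. Of 42 such genes, 8 were called higher and none lower in FOXL2WT against Vectors, where 2.46% of all genes were called higher. In FOXL2C134W against Vectors 22 were higher and none lower, where 7.48% of all genes were higher, and in FOXL2C134W against FOXL2WT 7 were higher and none lower, where 7.13% of all genes were higher. The medians were 0.12, 0.18 and 0.05, against member medians of 0.07, -0.02 and -0.10. UBTF, the upstream binding factor of RNA polymerase I, was at 80.0 to 80.7 CPM with Vectors, 77.9 to 80.3 CPM with FOXL2WT and 91.7 to 101 CPM with FOXL2C134W. Its log2 fold change was 0.30 ± 0.05 (SE) against FOXL2WT with an adjusted p of 0.00035 by edgeR. POLR1A, the largest subunit of that polymerase, was at 73.7 to 77.9 CPM with FOXL2WT and 89.8 to 93.8 CPM with FOXL2C134W, a log2 fold change of 0.28 ± 0.04 (SE) with an adjusted p of 0.00048. RRP12, a factor in ribosome export, was higher with both forms of FOXL2 than with Vectors, by 0.27 and 0.33 on the log2 scale. None of the 42 was called in the 4 comparisons that involve FOXO1 by edgeR, with 13 at an unadjusted p under 0.05 in FOXL2C134W + FOXO1 against FOXL2WT + FOXO1, 3 and 2 on adding FOXO1 to FOXL2WT and FOXL2C134W, and 4 in the interaction. Over all genes 13.54%, 9.13%, 11.23% and 12.52% were at that unadjusted p, in the same order. DESeq2 called 1 of the 42 in these comparisons, POLR1B, lower on adding FOXO1 to FOXL2WT.

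Among 15 genes of the mTOR, TOP and MYC pathways, edgeR called 2 higher and 1 lower in FOXL2WT against Vectors, 4 higher and 1 lower in FOXL2C134W against Vectors, and 4 higher and 2 lower in FOXL2C134W against FOXL2WT. Over all genes 6.07%, 14.7% and 11.2% were called in either direction, in the same order. MYC was higher with both forms of FOXL2, at 85.5 to 90.1 CPM with Vectors, 106 to 113 CPM with FOXL2WT and 106 to 118 CPM with FOXL2C134W. Its paralog MYCN was lower with both forms, at 2.27 to 2.83 CPM with Vectors, 1.28 to 1.92 CPM with FOXL2WT and 1.23 to 1.47 CPM with FOXL2C134W, log2 fold changes of -0.71 ± 0.20 (SE) and -0.92 ± 0.20 (SE) with adjusted p of 0.042 and 0.0037 by edgeR. The first of these calls was kept in 6 of 15 alternatives. EIF4EBP1, an inhibitor of cap-dependent translation, was higher by 0.50 ± 0.08 (SE) with FOXL2WT and 0.27 ± 0.08 (SE) with FOXL2C134W, with adjusted p of 0.0012 and 0.034 by edgeR. LARP1, which binds the TOP tract, and RPTOR, the mTOR complex 1 scaffold, were higher with FOXL2C134W than with FOXL2WT, by 0.41 ± 0.05 (SE) and 0.38 ± 0.06 (SE), with adjusted p of 0.00012 and 4e-04 by edgeR. LARP1 was at 214, 200 and 206 CPM with FOXL2WT, 253, 290 and 282 CPM with FOXL2C134W and 219, 237 and 241 CPM with FOXL2C134W + FOXO1. The first and second of these did not overlap, nor did the second and the last. RPTOR was at 32.8 to 35.9 CPM, 43.4 to 46.7 CPM and 35.2 to 39.4 CPM in the same order. MTOR and TSC1 were also called higher, and RHEB and MAX lower, in FOXL2C134W against FOXL2WT. Of the 6 genes of the list called there, 2 were left without replicate B or without replicate C of FOXL2C134W and 3 without replicate B of FOXL2WT, and RHEB was called in 3 of 6 such fits.

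Of the 78 mitochondrial ribosomal protein genes, which serve the separate ribosome of the mitochondrion, edgeR and DESeq2 called none in FOXL2WT against Vectors, with 17 of 78 at an unadjusted p under 0.05 by edgeR, where 20.75% of all genes were. It called MRPS6 lower in FOXL2C134W against Vectors, and MRPL46, MRPL49 and MRPL53 lower in FOXL2C134W against FOXL2WT, where 14.7% and 11.2% of all genes were called in either direction. Leaving out 1 library at a time gave 0 to 3 calls in the first of these comparisons, 3 without replicate A of FOXL2C134W, 2 without replicate A of Vectors and 0 in the other 4 fits. In the second it gave 0 to 6 calls, 6 without replicate A of FOXL2C134W, 1 without replicate C of FOXL2WT and 0 in the other 4 fits. With the length offset 2 genes were called in the first, both higher, and 1 in the second, lower. Their medians were 0.07, 0.01 and -0.08. Among 6 tested genes named as copies of members, RPL7L1 and RPS27L passed the test. RPL7L1 was higher by 0.21 ± 0.05 (SE) against Vectors and 0.22 ± 0.05 (SE) against FOXL2WT, with adjusted p of 0.0075 and 0.0072 by edgeR. RPS27L was lower by -0.28 ± 0.06 (SE) against Vectors with an adjusted p of 0.0048, at 68.8 to 77.8 CPM with Vectors and 59.0 to 65.2 CPM with FOXL2C134W.

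Ribosomal protein mRNAs have left many processed copies in the genome, and counts on such pseudogenes make the values of a few members less certain. The table lists 1142 pseudogenes named after ribosomal proteins, of which 545 had a count in some library, and 3 of them held 72.1% of the 117524 pseudogene counts. For 71 of the 77 members under 1% of the family's counts fell on pseudogenes. The exceptions were RPS28 (47.5%, on RPS28P7), RPL22 (29.0%, mostly on RPL22P1), RPL39 (9.57%), RPL3 (6.39%), RPL23A (4.91%) and RPS23 (3.07%). For these 6 genes the division of counts between gene and copy is uncertain, since short reads may not tell similar sequences apart. The sequences of gene and copy were not compared.

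RPL39P3 had 0 counts in 5 libraries (Vectors C, FOXL2WT A and B, FOXL2C134W A and FOXL2WT + FOXO1 A) and between 161 and 829 counts in the other 10, so that every condition but FOXL2C134W + FOXO1 held libraries of both kinds. RPL39 itself, which encodes a short protein at the exit tunnel, was at 175 to 240 CPM. RPS23P8 was likewise at 0 in 2 libraries (FOXL2C134W A and FOXL2WT + FOXO1 A). Adding pseudogene counts to their members left 0 members called in all 7 comparisons, with 7, 2, 10, 36, 9, 0 and 1 at an unadjusted p under 0.05 in the order given above.

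**Figure D5:**
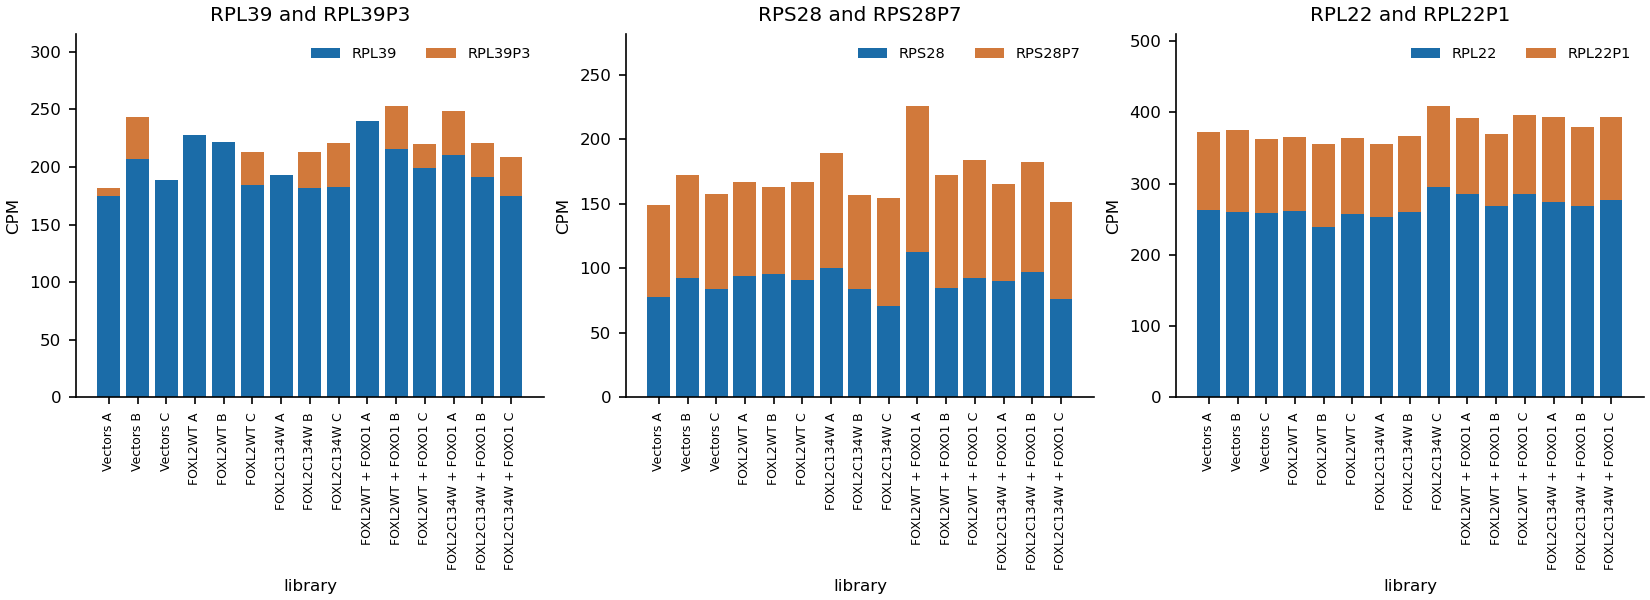
CPM of RPL39, RPS28 and RPL22 (blue) with the most abundant pseudogene of each stacked on top (orange) in the 15 libraries. RPL39P3 is missing in 5 libraries spread over 4 conditions, while RPS28P7 and RPL22P1 take a part in all 15.

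Transcript assignment within members was spread over several annotated forms. The most abundant transcript held a median of 68.9% of a member's TPM and was annotated as protein coding for 65 members, as a processed transcript for 6, as retaining an intron for 5 and as a target of nonsense-mediated decay for 1 (RPS27). RPS28 had 99.6% of its TPM on RPS28-201, of 334 bases and annotated as retaining an intron, and RPL37 98.7% on RPL37-202, a processed transcript of 505 bases. For 12 members under 50% of the TPM fell on coding transcripts. The division between forms is an estimate, and how far these forms overlap the coding ones was not measured. RPS24, which has 2 main coding forms that differ in their last exons, had 55.2% ± 0.32 (SD, n = 3) of its TPM on RPS24-214 with Vectors, 55.3% ± 1.01 with FOXL2WT and 59.0% ± 0.641 with FOXL2C134W. The 3 FOXL2C134W libraries (58.6% to 59.7%) lay above the others without FOXO1 (54.6% to 56.4%). In FOXL2WT + FOXO1 it was 57.0% to 63.4% and in FOXL2C134W + FOXO1 54.8% to 56.9%. No test was run on these shares, and how many other members had shares without overlap was not counted, so RPS24 is an example only.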

How the data were processed

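The 15 libraries of HGrC1 RNA were stranded, poly(A)-selected and read as 75-bp single ends. The authors quantified transcripts with Salmon 1.1.0 against hg38 (per the submitters' processing notes) and deposited estimated counts per gene, rounded to whole numbers, and for each library TPM and estimated counts per transcript. The deposited estimated counts served for tests, the deposited TPM for levels between genes.

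Members and lists were chosen with earlier results of these data known. Genes were kept by filterByExpr, scaled by TMM and fitted over all 15 libraries with 1 coefficient per condition by the quasi-likelihood test of edgeR 4.0.16, p-values being adjusted by Benjamini-Hochberg over all genes tested. Standard errors of log2 fold changes by edgeR were derived as the absolute log2 fold change over the square root of the F statistic. The 95% intervals used these approximate errors and the test's degrees of freedom. Libraries held 14962245 to 25339094 counts. Alternatives were DESeq2 1.42.0, other scalings and filters, a replicate block, length offsets (lowess span 0.3), pooled pseudogenes and leaving out each library. Tests were checked on simulated data. Members with a set role, the extremes of each comparison and of mean TPM, and up to 3 called genes per list and comparison were named, plus others chosen after their values were seen. RPS19BP1, which matches the pseudogene pattern but is coding, was left out. Replicate letters were checked for pairing: of 30 same-letter pairs of libraries, 2 had deviations correlated above 0.1, so letters were not taken to pair samples. Locations are from GENCODE 44. Values of some genes are not reported here by name, and the counts and medians include them.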

Additional observations from a re-analysis of the deposited data

Results flagged for a closer look

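LARP1 and RPTOR were flagged because the effect of adding FOXO1 differed between the FOXL2C134W and FOXL2WT backgrounds by the interaction test. For LARP1 the difference of the 2 log2 fold changes was -0.33 ± 0.08 (SE) with an adjusted p of 0.041 by edgeR, being -0.24 on FOXL2C134W and 0.09 on FOXL2WT. For RPTOR it was -0.34 ± 0.08 (SE) with an adjusted p of 0.048, being -0.26 on FOXL2C134W and 0.08 on FOXL2WT. The call was kept in 11 of 22 alternatives for LARP1 (adjusted p from 0.00018 to 0.94) and in 7 of 22 for RPTOR (0.017 to 0.82). FOXO1 mRNA was also lower in FOXL2C134W + FOXO1 than in FOXL2WT + FOXO1. SMAD3 mRNA was lower with FOXO1 than without, with means of 969 against 2768 CPM on FOXL2WT and 392 against 843 CPM on FOXL2C134W. The part of these levels in the difference was not tested. No member of the ribosomal protein family was flagged.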

How the results depend on the processing

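The count of 0 called members held in 101 of 118 combinations of an alternative setting and a comparison. In none of these were 30 of the 77 members called. The same fit can serve several comparisons, so the combinations are not independent. Many of them left out a library and so had less data. In the comparisons that involve FOXO1 only 0.0505% to 1.38% of all genes were called in the main fit. A count of 0 members there is near that share and says little about how stable the members were. Keeping every gene with 1 count in any library gave the most calls: 10 in FOXL2WT against Vectors, 2 in FOXL2C134W against Vectors, 21 in FOXL2C134W against FOXL2WT, 31 in FOXL2C134W + FOXO1 against FOXL2WT + FOXO1, 4 in FOXL2WT + FOXO1 against FOXL2WT and 1 in the interaction. In those fits 5.91%, 10.2%, 8.59%, 1.96%, 1.14% and 2.42% of all genes were called, in the same order. The length offset gave 4 and 8 members in the first 2 of these comparisons, and DESeq2 2 in the first and 1 in the fourth. Fitting only the conditions compared gave 10 in the first and 11 in the third. Over all genes the length offset called 1148 and 2243, DESeq2 1006 and 95, and the fits of only the conditions compared 1690 and 1478. Leaving out 1 library at a time gave 0 to 1 in FOXL2C134W against Vectors and 0 to 8 in FOXL2C134W against FOXL2WT, the higher values without replicate A of FOXL2C134W. Without that library 2126 and 2120 of all genes were called. The replicate block by letter left 0 called in all 7 comparisons. With the length offset the replicate block gave 4, 7 and 2 in the first 3, all higher, where 1177, 2204 and 1492 of all genes were called. RPL6 in the fourth comparison had a log2 fold change of -0.028 with transcript length offsets in DESeq2, against 0.04. The causes were not tested. In FOXL2WT against Vectors the 8 called assembly genes became 3 to 8 without 1 library (3 without replicate A of Vectors, 4 without replicate C of Vectors or replicate A or B of FOXL2WT and 5 without replicate C of FOXL2WT) and 17 when only those conditions were fitted. In FOXL2C134W against FOXL2WT the 7 became 3 without replicate B of FOXL2WT or C of FOXL2C134W, 4 without replicate A of FOXL2WT or B of FOXL2C134W, and 12, of which 10 were higher, without replicate A of FOXL2C134W. With transcript length offsets in DESeq2, 5, 14 and 4 assembly genes were called in place of 8, 22 and 7. Over all genes, the number called ranged over the alternatives from 305 to 1690, 971 to 2320, 764 to 2120, 7 to 446, 2 to 260, 5 to 463 and 45 to 551, in place of 842, 2041, 1560, 20, 7, 99 and 192 in the 7 comparisons. Each member had at least 1330 counts in every library, and the 95% intervals of 36 to 74 members, depending on the comparison, lay within 1.2-fold.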
